A study of Mus musculus with 19 samples.

Results

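The transcription factor Nrf2, encoded by Nfe2l2, its inhibitor Keap1 and 7 genes that Nrf2 is known to activate (Nqo1, Gclc, Gclm, Txnrd1, Srxn1, Hmox1 and Gsr) were followed through the reproductive cycle in mouse liver. These 9 genes were picked by their symbols from 51826 gene entries, with earlier results of these data known, and each had 1 entry. The 19 mice were Balb/c females (strain given as Balbc) carrying no named genetic change or drug treatment. They comprised 7 nulliparous mice, 6 mice at lactation day 10 and 6 mice at involution day 6, which is 6 days after the pups were weaned. All are labelled as 12 weeks of age. Each mouse gave a separate library from poly(A) RNA of flash frozen caudate liver lobe, and values are TPM, the transcripts of a gene per 1000000 transcripts of the same library after correction for gene length.

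Nrf2 is a basic leucine zipper factor that Keap1 holds in the cytoplasm and presents to a Cul3 ubiquitin ligase, so that it is degraded in unstressed cells. Oxidants and electrophiles modify cysteines of Keap1, and Nrf2 then accumulates without any need for more Nfe2l2 mRNA, pairs with a small Maf protein and binds antioxidant response elements (ARE) near its targets. The targets make and recycle glutathione, reduce thioredoxin and oxidized peroxiredoxin, and dispose of quinones and heme, and in liver they are known for protecting hepatocytes against reactive drug metabolites. mRNA levels do not report the amount or the location of the Nrf2 protein.

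Promoter sequences are shown because the ARE is what joins these genes into a group. RefSeq promoter entries (GRCm38.p6) were found for 6 of the 9 genes, with 8 transcription starts in all because Txnrd1 has 3. The 250 bases before each start were searched on both strands for the ARE core TGACNNNGC, for a wider form of it, TGANNNNGC, and for the AP-1 type motif TGANTCA. Every ARE core match is also a match of the wider form. The stretches around the matches are written 5′ to 3′ on the strand of the gene, with matches of the wider form in capitals. The stretch of Srxn1 lies at chr2:152105351-152105502 (plus strand), that of Nfe2l2 at chr2:75704880-75704913 (minus strand), that of Gclm at chr3:122245408-122245446 (plus strand), that of Keap1 at chr9:21239370-21239408 (minus strand), and those of starts 2 and 3 of Txnrd1 at chr10:82859099-82859137 and chr10:82860242-82860280 (plus strand).
Srxn1: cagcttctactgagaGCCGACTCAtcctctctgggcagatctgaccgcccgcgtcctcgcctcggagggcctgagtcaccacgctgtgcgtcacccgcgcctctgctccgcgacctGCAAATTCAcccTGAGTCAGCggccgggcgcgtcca
Nfe2l2: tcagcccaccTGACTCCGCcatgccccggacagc
Gclm: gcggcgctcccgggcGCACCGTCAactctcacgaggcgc
Keap1: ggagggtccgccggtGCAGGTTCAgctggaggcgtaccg
Txnrd1, start 2: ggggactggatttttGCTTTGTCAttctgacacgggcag
Txnrd1, start 3: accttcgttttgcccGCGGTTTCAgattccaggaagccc

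The ARE core stood in the windows of Nfe2l2, Gclm and start 2 of Txnrd1. It occurs in 10.2% of the 32851 mouse promoter windows of this length and in windows of 11.5% of their genes. The wider form stood in windows of 5 of the 6 genes. It occurs in windows of 38.7% of all genes and in 35.2% of all windows, so that a match is common. The window of Srxn1 held 3 matches of the wider form where no other window of these 6 genes held more than 1. How many windows of all genes hold 3 was not determined. In Srxn1, TGAGTCAGC at bases -45 to -37 overlapped 1 of its 2 AP-1 type motifs. The other AP-1 type motif, tgagtca at bases -102 to -96, is in lower case above, and the motif occurs in 6.75% of windows. The window of Nqo1 and that of start 1 of Txnrd1 held none of these letters. A match describes the letters of a window and is not a measured binding site.

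**Figure D1:**
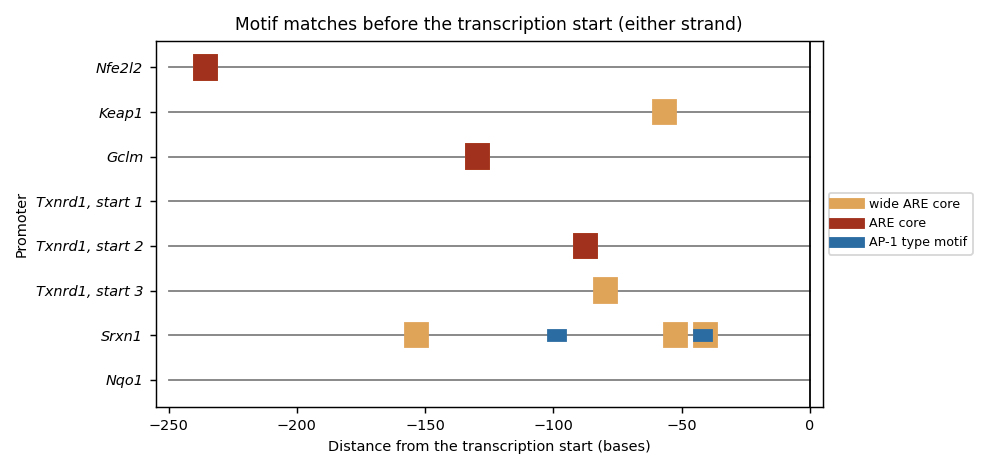
Positions of the motif matches in the 250 bases before each RefSeq transcription start, with the distance from the start in bases on the x axis and 1 line per start on the y axis. Pale boxes are the wider ARE form, dark red boxes the ARE core and blue boxes the AP-1 type motif, and Srxn1 carries 3 matches of the wider form where no other start carries more than 1.

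Differences between stages were tested by limma-trend, applied to log2(TPM + 1) in a single fit of 19 mice and of the 16230 genes averaging 0.1 TPM or more, and a gene is called here at a Benjamini-Hochberg adjusted p under 0.05. All 9 genes passed this filter. TPM values keep no read number, and the error of a value is therefore given by the spread between mice alone. The 10 most abundant genes held 25.7% to 28.0% of the TPM in nulliparous mice and 29.0% to 31.2% at lactation day 10. By their animal numbers, 6 mice (3 nulliparous, 3 lactating) fall under 200 and 13 mice (4 nulliparous, 3 lactating and the 6 at involution) fall at 200 and above. These ranges are no batch named by the submitters, and the mice came from 2 suppliers without a supplier being given for each mouse. Between the ranges, 25.6% of genes were called among nulliparous and lactating mice once stage was in the fit, so values among mice numbered 200 and above are given beside the results. The share of all genes without overlap between groups was determined over all mice only, and not among mice numbered 200 and above. All 6 hepatocyte markers were detected in each stage. Their summed level per mouse was 57820 to 93145 TPM in nulliparous mice, 98012 to 149367 TPM at lactation day 10 and 78478 to 109703 TPM at involution day 6. Of these markers, only Alb was called between nulliparous and lactating mice, at a log2 fold change of 0.86.

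At lactation day 10, Txnrd1 and Srxn1 were higher than in nulliparous mice, and the other 7 genes were not called. Both are part of the thioredoxin and peroxiredoxin system. The two-sided exact permutation test of TPM, unadjusted, also gave p under 0.05 for Nfe2l2 (0.0373), Keap1 (0.0140), Gsr (0.0268) and Nqo1 (0.0117), each higher at lactation, a threshold that 20.7% of all genes passed by the same test. The 2 called genes of 9 stand beside 9.21% of all genes called, of which 2.72% of all genes were higher and 6.49% lower. The median log2 difference of the 9 genes was 0.29, against -0.03 over all genes tested. Restricted to mice numbered 200 and above, 1 of the 9 genes was called, Srxn1, beside 7.07% of all genes. Of all called genes, 29.5% were higher, and this share was 45.5% when the TPM values were rescaled by median ratios between mice.

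From lactation day 10 to involution day 6, 6 of the 9 genes were called. Nfe2l2, Srxn1, Txnrd1, Gsr and Nqo1 fell and Hmox1 rose, while Keap1, Gclc and Gclm were not called. Over all genes 22.8% were called, 18.1% higher and 4.73% lower, so the 5 members that fell stand against a background in which most calls were higher. The median log2 difference of the 9 genes was -0.29, against 0.10 over all genes. With mice numbered 200 and above only, 3 of the 9 genes were called, beside 14.1% of all genes: Nfe2l2 and Srxn1 were lower and Hmox1 was higher. Higher genes made up 79.3% of all calls, and 52.0% after median-ratio scaling, under which the same 6 members were called in the same directions. The lactating mice enter both comparisons, so the rise and the later fall of a gene are not independent of each other.

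Between involution day 6 and nulliparous mice, limma-trend called 0 of the 9 genes, where 4.36% of all genes were called, 3.44% higher and 0.912% lower. A limma unadjusted p under 0.05 was reached by 3 of them, Keap1, Gclm and Hmox1, and by 25.1% of all genes. The two-sided exact permutation test of TPM gave an unadjusted p under 0.05 for Keap1 and Hmox1, and for 22.4% of all genes. Among mice numbered 200 and above, limma-trend called 0 of the 9 and 0.819% of all genes, and the lowest two-sided exact permutation p of the 9, unadjusted, was 0.0571 for Hmox1. The median log2 difference of the 9 genes was -0.00, against 0.07 over all genes. Of the calls over all genes, 79.1% were higher, and 42.7% after median-ratio scaling. No member reached the study's cutoff of a log2 fold change of 1 in size in any comparison, a cutoff that with the adjusted p was met by 0.746% of genes for lactation against nulliparous, 1.93% for involution against lactation and 0.253% for involution against nulliparous. The largest change of a called member was that of Hmox1 at involution, 0.63 on the log2 scale.

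**Figure D2:**
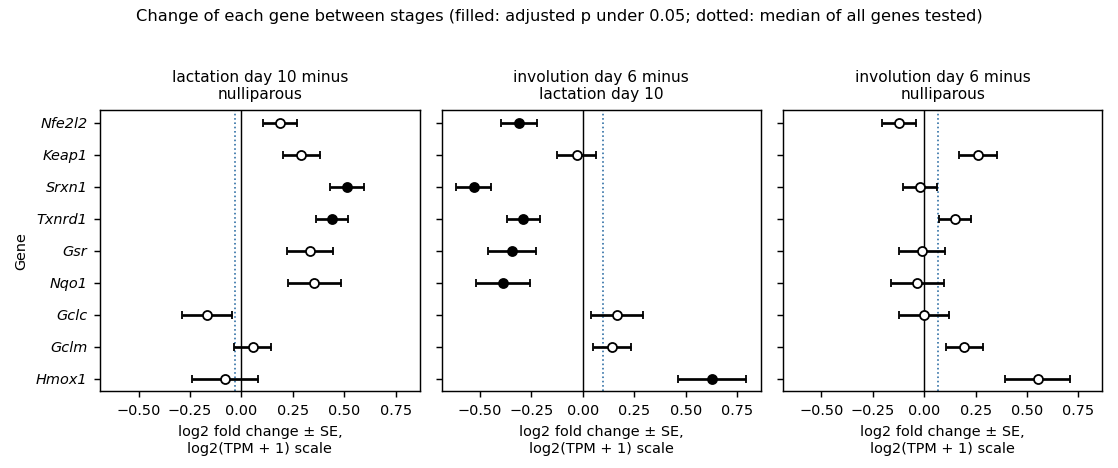
Log2 fold change with its standard error for each of the 9 genes in the 3 comparisons, on the log2(TPM + 1) scale, with filled points at an adjusted p under 0.05 and the median of all genes as a dotted line. Srxn1 lies at 0.51 in the left panel and at -0.53 in the middle panel, and 0 of the 9 points are filled in the right panel.

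The genes for glutathione synthesis were the most abundant of the 9. Per length, the mean over 19 mice was 137 TPM for Gclm, 117 TPM for Gclc, 61.0 TPM for Txnrd1, 36.9 TPM for Gsr, 30.6 TPM for Keap1, 30.1 TPM for Nfe2l2, 23.5 TPM for Srxn1, 20.01 TPM for Hmox1 and 10.9 TPM for Nqo1. Even Nqo1, the lowest, lay above 66.6% of the genes tested.

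**Figure D3:**
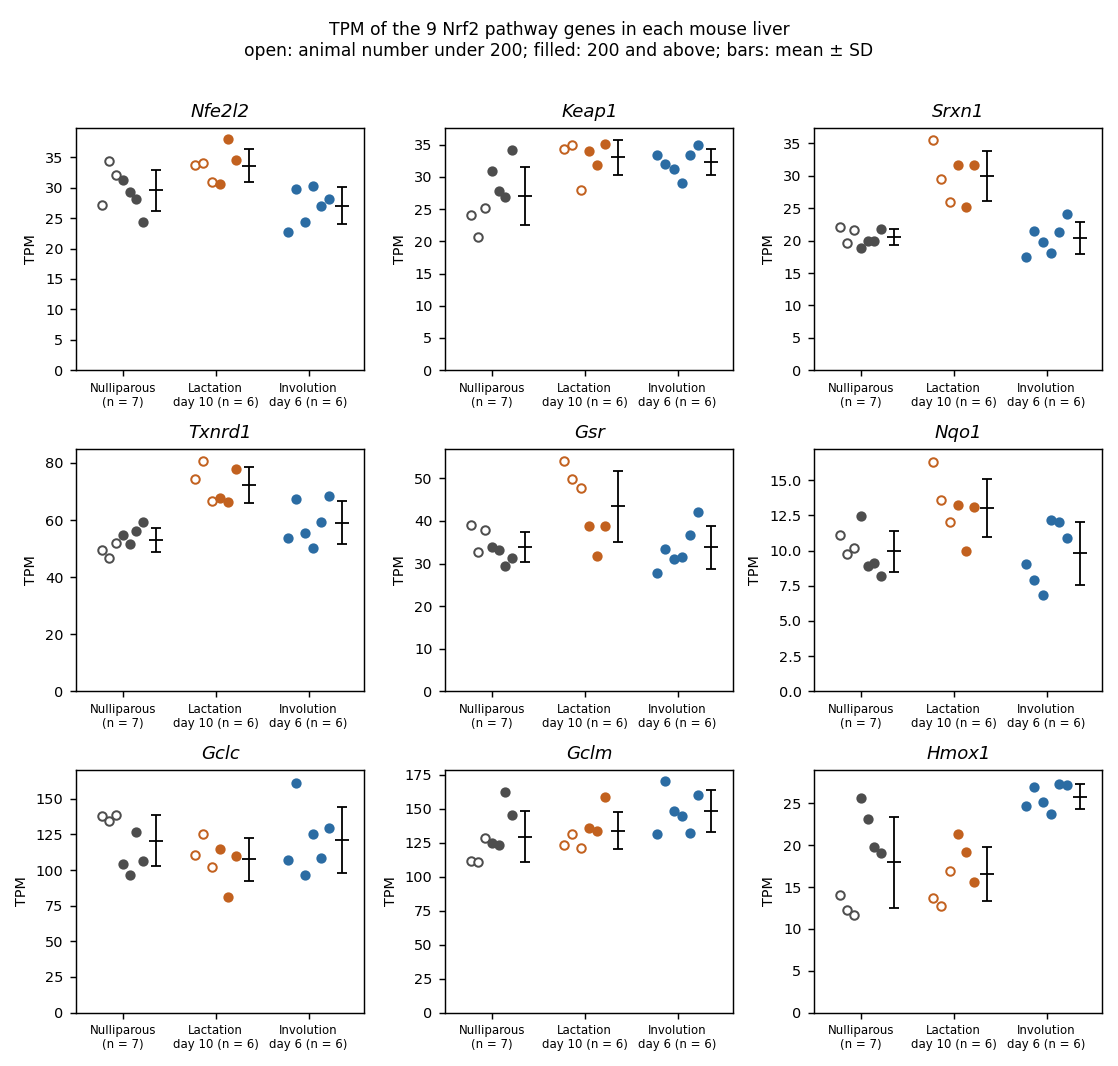
TPM of each of the 9 genes in every mouse by stage, with the mean and SD as bars, open points for animal numbers under 200 and filled points for 200 and above. The 6 lactating mice lie above all 7 nulliparous mice for Srxn1 and Txnrd1, and the 6 involution mice lie above all lactating mice for Hmox1.

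Nfe2l2 (ENSMUSG00000015839, chr2:75675513-75704641, minus strand, GRCm38) encodes Nrf2 itself. Its level ran from 24.3 to 34.5 TPM with a median of 29.3 in nulliparous mice, from 30.6 to 38.0 TPM with a median of 33.9 at lactation day 10, and from 22.7 to 30.3 TPM with a median of 27.5 at involution day 6. The lactating and involution mice did not overlap, while the nulliparous mice spanned both. The mean was 29.6 ± 3.39 TPM (SD, n = 7), 33.7 ± 2.70 TPM (SD, n = 6) and 27.0 ± 3.03 TPM (SD, n = 6) in the same order. The fall from lactation to involution was 0.31 on the log2 scale in size (log2 fold change -0.31, SE 0.09, limma adjusted p = 0.0140), with a two-sided exact permutation p of 0.00216, the smallest these groups allow. Groups without overlap in this comparison were found for 11.5% of all genes. Mice numbered 200 and above had means of 34.4 and 27.0 TPM without overlap, with a limma adjusted p of 0.0493. Lactating against nulliparous mice gave a log2 difference of 0.19 with an SE of 0.08 and a limma adjusted p of 0.178.

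Keap1 (ENSMUSG00000003308, chr9:21229730-21239361, minus strand) encodes the adaptor that marks Nrf2 for degradation. It ran from 20.6 to 34.1 TPM with a median of 26.8 in nulliparous mice, from 28.0 to 35.1 TPM with a median of 34.2 at lactation day 10 and from 29.1 to 34.9 TPM with a median of 32.7 at involution day 6. The nulliparous mice spread the most, and their 3 lowest were those numbered under 200, at 23.3 ± 2.33 TPM (SD, n = 3) against 29.9 ± 3.29 TPM (SD, n = 4) for the others. The log2 difference of lactation from nulliparous was 0.29 with an SE of 0.09, just outside the threshold at a limma adjusted p of 0.0505. It was 0.46 within the lower range (adjusted p = 0.0265 in the limma fit with an interaction) and 0.17 within the upper range (adjusted p = 0.380). Involution differed from lactation by -0.03 with an SE of 0.09 and a limma adjusted p of 0.853, and from nulliparous by 0.26 with an SE of 0.09 and an adjusted p of 0.0953.

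Srxn1 (ENSMUSG00000032802, chr2:152105516-152111376, plus strand) encodes sulfiredoxin, which repairs peroxiredoxins that hydrogen peroxide has overoxidized. It ran from 18.9 to 22.2 TPM with a median of 20.01 in nulliparous mice, from 25.3 to 35.5 TPM with a median of 30.6 at lactation day 10 and from 17.5 to 24.2 TPM with a median of 20.6 at involution day 6. The lactating mice formed a group of their own above the rest, and nulliparous and involution mice overlapped. The mean rose from 20.6 ± 1.27 TPM (SD, n = 7) to 29.9 ± 3.87 TPM (SD, n = 6), which is 45.4% higher, with a log2 fold change of 0.51, an SE of 0.08 and a limma adjusted p of 0.00068. It then fell to 20.4 ± 2.47 TPM (SD, n = 6), with a log2 fold change of -0.53, an SE of 0.09 and a limma adjusted p of 0.000228. The two-sided exact permutation p was 0.00117 and 0.00216, the smallest possible in each case. Groups did not overlap for 3.27% of all genes in the first comparison and for 11.5% in the second. The rise was 0.49 within the lower range of animal numbers and 0.52 within the upper range, and the upper range alone kept both calls. Its promoter stretch is the longest of those printed above, with 3 matches of the wider ARE form.

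Txnrd1 (ENSMUSG00000020250, chr10:82833951-82897712, plus strand) encodes cytosolic thioredoxin reductase, the selenoprotein that uses NADPH to reduce thioredoxin. It ran from 46.8 to 59.3 TPM with a median of 52.1 in nulliparous mice, from 66.1 to 80.8 TPM with a median of 71.0 at lactation day 10 and from 50.1 to 68.5 TPM with a median of 57.5 at involution day 6. The lactating mice lay above all nulliparous mice, and 4 of the 6 involution mice lay below all lactating mice. Lactating and nulliparous mice did not overlap for 3.27% of all genes. The mean rose from 52.9 ± 4.22 TPM (SD, n = 7) to 72.3 ± 6.24 TPM (SD, n = 6), with a log2 fold change of 0.44, an SE of 0.08 and a limma adjusted p of 0.0014. At involution it was 59.1 ± 7.41 TPM (SD, n = 6), a log2 fold change of -0.29 from lactation with an SE of 0.08 and a limma adjusted p of 0.0145. With only mice numbered 200 and above in the fit, neither was called, at log2 fold changes of 0.34 (adjusted p = 0.0772) and -0.26 (adjusted p = 0.106). In the limma fit with an interaction, the rise was called in both ranges, at 0.57 in the lower (adjusted p = 0.00366) and 0.34 in the upper (adjusted p = 0.0285), so the call in the upper range depends on the fit. In that upper range the 3 lactating and 4 nulliparous mice did not overlap, for which the share of all genes was not determined. Exact permutation there gave p = 0.0571, the smallest that 35 splits allow.

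The remaining 3 enzymes make and recycle glutathione. Gclc (ENSMUSG00000032350, chr9:77754535-77794485, plus strand) and Gclm (ENSMUSG00000028124, chr3:122245557-122270732, plus strand) encode the catalytic and the modifier subunit of glutamate cysteine ligase, which carries out the rate-limiting step of glutathione synthesis. Gclc ran from 96.8 to 138 TPM with a median of 127 in nulliparous mice, from 81.1 to 126 TPM with a median of 110.2 at lactation day 10 and from 96.3 to 161 TPM with a median of 117 at involution day 6. Gclm ran from 111 to 162 TPM with a median of 125, from 121 to 159 TPM with a median of 132.5, and from 131 to 170.5 TPM with a median of 147 in the same order. All 3 stages overlapped for both genes, and neither was called in any comparison. The log2 difference from nulliparous to lactation was -0.17 for Gclc with an SE of 0.12 and 0.05 for Gclm with an SE of 0.09, with limma adjusted p of 0.454 and 0.775. From lactation to involution it was 0.17 for Gclc and 0.14 for Gclm, with limma adjusted p of 0.371 and 0.296, and for Gclm it turned to -0.01 after median-ratio scaling.

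Since TPM is per length, the subunits can be set side by side in each mouse. In nulliparous mice the ratio of Gclc to Gclm was 0.951 ± 0.217 (SD, n = 7), in lactating mice 0.807 ± 0.130 (SD, n = 6) and in involution mice 0.816 ± 0.0973 (SD, n = 6). Two-sided exact permutation tests gave p of 0.186 for lactation against nulliparous, 0.894 for involution against lactation and 0.200 for involution against nulliparous. The spread among nulliparous mice followed the animal numbers, with a ratio of 1.17 ± 0.0882 (SD, n = 3) in the lower range and 0.783 ± 0.0434 (SD, n = 4) in the upper range.

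Gsr (ENSMUSG00000031584, chr8:33652523-33698163, plus strand) encodes glutathione reductase, which returns oxidized glutathione to its reduced form with NADPH. It ran from 29.5 to 39.1 TPM with a median of 33.1 in nulliparous mice, from 31.9 to 54.0 TPM with a median of 43.3 at lactation day 10 and from 27.8 to 42.1 TPM with a median of 32.5 at involution day 6. Lactating mice were high mainly in the lower range of animal numbers, at 50.5 ± 3.16 TPM (SD, n = 3) against 36.5 ± 3.97 TPM (SD, n = 3) in the upper range. The fall to involution had a log2 fold change of -0.35, an SE of 0.12 and a limma adjusted p of 0.0397. In the upper range alone it was -0.11, with an adjusted p of 0.555, and since no involution mouse has a lower number, stage and range cannot be told apart in the larger value. The difference of lactation from nulliparous was 0.33 with an SE of 0.11 and a limma adjusted p of 0.0700.

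Nqo1 (ENSMUSG00000003849, chr8:107388225-107403206, minus strand) encodes the quinone reductase that is widely used as a readout of Nrf2. It ran from 8.16 to 12.4 TPM with a median of 9.77 in nulliparous mice, from 9.98 to 16.3 TPM with a median of 13.1 at lactation day 10 and from 6.85 to 12.2 TPM with a median of 9.97 at involution day 6. Of the 6 lactating mice, 4 lay above all nulliparous mice, and the groups overlapped in every comparison. The log2 difference of lactation from nulliparous was 0.35 with an SE of 0.13 and was not called, at a limma adjusted p of 0.0929. The fall to involution was called, with a log2 fold change of -0.39, an SE of 0.13 and a limma adjusted p of 0.0419. In the upper range of animal numbers the fall was -0.29 with an adjusted p of 0.312, and the call held in 4 of the 12 fits that left out 1 lactating or involution mouse.

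The 5 genes whose levels over the 19 mice were most like that of Nqo1, among 11588 genes averaging 1 TPM or more, were Mlxipl (Pearson r = 0.859), 4932422M17Rik, Pdk2, Ccdc159 and Sc5d (r = 0.785). Mlxipl encodes the carbohydrate response factor ChREBP and had means of 83.2, 118 and 88.9 TPM in nulliparous, lactating and involution mice. For Nfe2l2 they included Cyp4a31 (r = 0.765), Mup21, Akr1c19 and Creg1 (r = 0.733). Cyp4a31, a fatty acid hydroxylase gene, had means of 6.66, 19.2 and 2.70 TPM. These values of r are a description over mice that share stages and are given without a p.

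Hmox1 (ENSMUSG00000005413, chr8:75093621-75100589, plus strand) encodes heme oxygenase 1, which opens the heme ring and is known to be high in macrophages that take up red blood cells. It ran from 11.7 to 25.7 TPM with a median of 19.1 in nulliparous mice, from 12.7 to 21.3 TPM with a median of 16.2 at lactation day 10 and from 23.7 to 27.3 TPM with a median of 26.0 at involution day 6. All 6 involution mice lay above all lactating mice, and 3 of them lay above all nulliparous mice. The mean rose from 16.6 ± 3.28 TPM (SD, n = 6) to 25.8 ± 1.55 TPM (SD, n = 6), which is 56.0% higher, with a log2 fold change of 0.63, an SE of 0.17 and a limma adjusted p of 0.00999. The two-sided exact permutation p was 0.00216, and groups did not overlap for 11.5% of all genes between these stages. Against nulliparous mice the log2 difference was 0.55 with an SE of 0.16, not called at a limma adjusted p of 0.0545. Involution and nulliparous mice overlapped for Hmox1, in a comparison where 2.38% of all genes did not overlap.

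The level of Hmox1 also differed between the ranges of animal number. Nulliparous mice had 12.7 ± 1.27 TPM (SD, n = 3) in the lower and 21.9 ± 3.06 TPM (SD, n = 4) in the upper range, and lactating mice had 14.4 ± 2.18 TPM (SD, n = 3) and 18.7 ± 2.88 TPM (SD, n = 3). The difference between ranges, with stage in the fit, was 0.56 on the log2 scale with an SE of 0.11 and a limma adjusted p of 0.00254. Among mice numbered 200 and above, involution exceeded lactation by 0.45 (adjusted p = 0.0117, groups without overlap) and nulliparous by 0.23 (adjusted p = 0.342, groups overlapping). Of the other 8 genes, Gsr was lower in the upper range by a log2 difference of -0.32 (adjusted p = 0.00762) and Gclm was higher by 0.21 (adjusted p = 0.0494). By the same fit, 25.6% of all genes were called between the ranges. The difference of lactation from nulliparous itself was not called as different between the ranges for any of the 9 genes, with a lowest limma adjusted p of 0.390, where 0.111% of all genes were called.

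From lactation to involution, markers of macrophages and Kupffer cells rose as Hmox1 did. Against nulliparous mice, Hmox1 was not called at lactation (log2 difference -0.08, limma adjusted p = 0.820) or at involution. Of 11 macrophage and Kupffer cell markers, all 11 were higher at involution than at lactation, beside 18.1% of all genes. All 11 were also higher at involution than in nulliparous mice (3.44% of all genes), and 10 of 11 were lower at lactation than in nulliparous mice (6.49% of all genes). Their summed level was 291 to 376 TPM in lower-numbered and 460 to 546 TPM in upper-numbered nulliparous mice, 199 to 377 TPM in lactating mice and 611 to 816 TPM in involution mice, and none was at 0. In bulk RNA, more cells of a type and more RNA per cell cannot be told apart. Among mice numbered 200 and above, 11 of 11 markers were higher at involution than at lactation and 3 of 11 were higher than in nulliparous mice, a count that was 7 of 11 with all mice after median-ratio scaling. Erythroid markers went the other way, with 5 of 5 lower at involution than at lactation and summed levels of 1331 to 3336 TPM against 197 to 847 TPM. Markers of other cell types were also higher at involution than at lactation, for 3 of 3 neutrophil, 3 of 5 endothelial, 2 of 5 stellate cell and 1 of 5 cholangiocyte markers tested, with 0 lower. Their summed levels at lactation and involution were 4.03 to 8.92 and 12.4 to 20.7 TPM for neutrophils, 61.1 to 113 and 147 to 163 TPM for endothelium, 104 to 119 and 145 to 185 TPM for stellate cells, and 19.4 to 29.6 and 29.4 to 39.8 TPM for cholangiocytes. Of 6 hepatocyte markers, Ttr was higher and Alb lower at involution than at lactation, at log2 fold changes of 0.72 and -0.68, and the others were not called. Summed hepatocyte markers were 98012 to 149367 TPM at lactation and 78478 to 109703 TPM at involution. The part of any of these cell types in the level of Hmox1 was not tested.

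Once stage means were removed, mice with more macrophage marker RNA tended to have more Hmox1, but mostly between the ranges of animal number. With the stage means removed, Pearson r between Hmox1 and the mean of the 11 markers was 0.80 over 19 mice (permutation p adjusted over 8 relations 0.00048) and Spearman rho was 0.79 (adjusted permutation p = 0.00072). With the means of stage and range removed, r was 0.45 (permutation p = 0.0560, adjusted 0.448) and rho was 0.44 (permutation p = 0.0643, adjusted 0.514). Leaving out the 2 mice whose marker level, after this removal, lay farthest from the median gave an r of 0.31. With the same means removed, r was 0.24 over the 13 mice of the upper range and 0.78 over the 6 mice of the lower range. Ordered by their summed markers, the 6 involution mice had 611, 612, 707, 723, 727 and 816 TPM. Their Hmox1 was 27.0, 27.3, 27.3, 23.7, 24.7 and 25.1 TPM in the same order, so it did not rise with the markers. The relation was not tested within that stage alone.

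**Figure D4:**
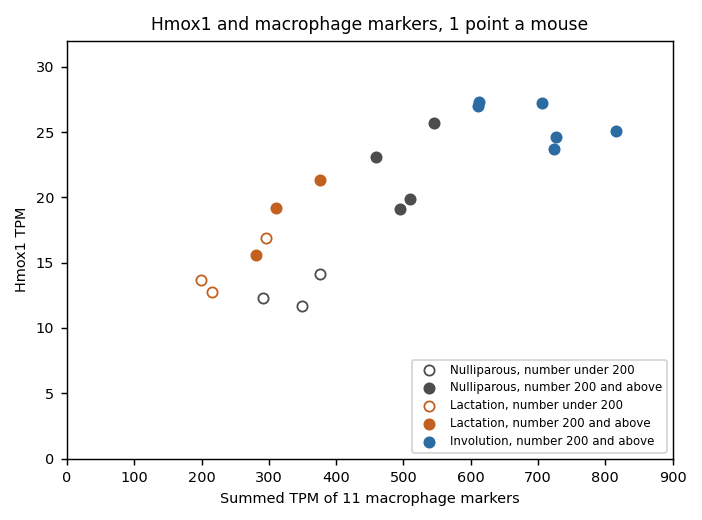
Hmox1 TPM on the y axis against the summed TPM of 11 macrophage and Kupffer cell markers on the x axis, 1 point a mouse, with open points for animal numbers under 200. Involution mice hold the upper right, at 611 to 816 TPM of markers and 23.7 to 27.3 TPM of Hmox1, and the lower-numbered nulliparous mice lie below the other nulliparous mice on both axes.

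Whether mice of the same stage with more Nfe2l2 mRNA also had more of its targets was examined for the 7 target genes after the means of stage and range were removed. Pearson r ran from -0.10 for Srxn1 to 0.26 for Nqo1 over 19 mice, with adjusted permutation p of 0.838 or more, and Spearman rho ran from -0.24 to 0.23, with adjusted permutation p of 0.903 or more. Without the 2 mice whose Nfe2l2 level, after this removal, lay farthest from the median, r ran from -0.26 to 0.16. Over the 13 mice of the upper range it ran from -0.13 to 0.33, and over the 6 mice of the lower range from -0.76 to 0.30. Within stage and range, no relation between the level of Nfe2l2 mRNA and that of a target was detectable in these 19 mice. Differences between stages were removed before this test and are not covered by it.

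The other genes of the pathway were taken as lists with known roles, chosen with earlier results of these data known. Their counts stand beside 2.72% of all genes higher and 6.49% lower at lactation against nulliparous. At involution against lactation, 18.1% of all genes were higher and 4.73% lower. Among 10 partners and regulators of Nrf2, Mafk, a small Maf partner, rose at lactation from 5.46 ± 1.01 TPM (SD, n = 7) to 8.12 ± 1.75 TPM (SD, n = 6) and fell to 5.66 ± 0.743 TPM (SD, n = 6) at involution. Its log2 fold changes were 0.49 and -0.44, with limma adjusted p of 0.0167 and 0.0189. Mafk was the only one of the 10 called at lactation. At involution the ligase genes Btrc and Rbx1 also rose, by 0.32 and 0.18 on the log2 scale with adjusted p of 0.0160 and 0.0284, but after median-ratio scaling 0 of the 10 were called higher. Among mice numbered 200 and above, 0 of the 10 were called at lactation and 1 at involution.

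Of 6 genes in pathways that supply NADPH, the electron donor for Txnrd1, Gsr and Nqo1, 4 were higher at lactation. These were G6pdx and Pgd of the oxidative pentose phosphate pathway, the transketolase Tkt, which itself makes no NADPH, and malic enzyme Me1. Their log2 fold changes were 1.16, 0.63, 0.71 and 0.73, with limma adjusted p of 0.0294, 0.0236, 0.00043 and 0.0153. The median of the list was 0.67. At involution 3 of 6 fell, with log2 fold changes of -0.60 for Pgd, -0.36 for Tkt and -0.23 for the isocitrate dehydrogenase Idh1. In the upper range, 4 of 6 were higher at lactation and 5 of 6 lower at involution, and between involution and nulliparous mice 0 of 6 were called by limma-trend in either set of mice.

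Detoxification and export genes formed a list of 18. At lactation 9 of 18 rose and 0 fell, beside 2.72% and 6.49% of all genes, and the list had a median log2 difference of 0.55. Those that rose were led by the glutathione S-transferases Gstm3 and Gstm4, the UDP-glucose dehydrogenase Ugdh and the carbonyl reductase Cbr1, at 1.58, 0.70, 0.86 and 0.77 with limma adjusted p of 0.00405, 0.0199, 0.000222 and 0.0203. Gstm3 rose from 14.9 ± 8.51 TPM (SD, n = 7) to 43.9 ± 19.8 TPM (SD, n = 6), and was 8.78 ± 1.53 TPM (SD, n = 6) at involution. At involution 9 of 18 fell and 2 rose, beside 4.73% and 18.1% of all genes. The falls were led by Gstm3, Gsta1, Gstm4 and Gstm2, with log2 fold changes of -2.10, -1.25, -0.94 and -0.86. Against nulliparous mice only Aox1, an aldehyde oxidase, was called, with a log2 fold change of -0.39 and a limma adjusted p of 0.00468. In the upper range the counts were 10 of 18 higher at lactation, and 2 higher and 10 lower at involution, and 0 of 18 were called against nulliparous mice. Some Gst genes are close copies of each other whose shared reads RSEM divides by estimation, so the split among such copies is uncertain.

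The glutathione and peroxide genes had no common direction. Of 18, 16 passed the filter, 2 were higher and 1 lower at lactation, and 3 were higher and 5 lower at involution. Gpx4, which reduces lipid peroxides, had log2 fold changes of 0.41 and -0.55 (limma adjusted p = 0.000554 and 1.61e-05), and Gpx1, the abundant cytosolic glutathione peroxidase, went the other way at -0.48 and 0.56 (adjusted p = 0.00127 and 0.000144). The mitochondrial peroxiredoxin Prdx3 was higher at lactation by 0.26, glutaredoxin Glrx fell by 0.54 on the log2 scale at involution and the peroxiredoxin Prdx1 rose by 0.43. Among mice numbered 200 and above, 1 was higher and 1 lower at lactation, and 1 was higher and 4 lower at involution. The 2 genes below the filter were the cystine transporter Slc7a11, which was listed at 0 in 13 of 19 mice, and the gamma-glutamyl transferase Ggt1, which was listed at 0 in 4.

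Of the 6 other genes of heme and iron handling, 2 were higher and 2 lower at lactation, and 3 were higher and 2 lower at involution. At lactation the ferritin chains Fth1 and Ftl1 were higher, by 0.35 and 0.32 on the log2 scale, and the iron exporter Slc40a1 and biliverdin reductase Blvra were lower, at -0.78 and -0.35. At involution Slc40a1, Blvra and Hmox2, the constitutive heme oxygenase, rose with Hmox1, by 1.20, 0.50 and 0.43, and Ftl1 and Fth1 fell by 0.47 and 0.22 on the log2 scale. Slc40a1 was at 86.2 ± 24.9 TPM (SD, n = 7), 49.1 ± 11.2 TPM (SD, n = 6) and 112 ± 8.33 TPM (SD, n = 6) in nulliparous, lactating and involution mice, and it is a gene that macrophages also express. Among mice numbered 200 and above, 3 of the 6 were called at lactation and 2 at involution.

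**Figure D5:**
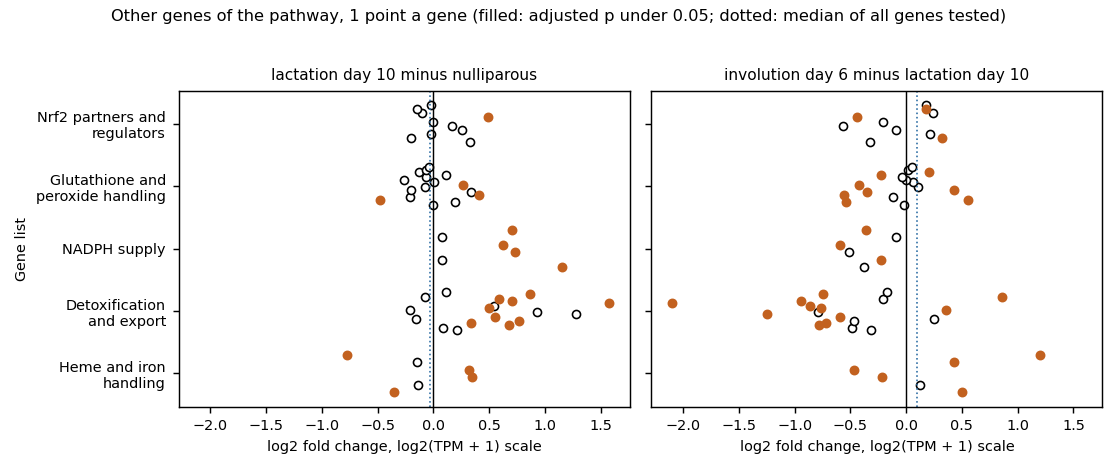
Log2 fold changes of the other genes of the pathway, 1 point a gene, in 5 lists, for lactation minus nulliparous at left and involution minus lactation at right, on the log2(TPM + 1) scale. Filled points have an adjusted p under 0.05. In the NADPH supply list, 4 of 6 genes are filled to the right of 0 at lactation and 3 of 6 to the left at involution.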

How the data were processed

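Liver poly(A) RNA from each of 19 mice was sequenced in paired-end mode. The authors aligned the reads to GRCm38, quantified genes with RSEM 1.3.1 and deposited TPM values with 2 decimals, and their DESeq2 test on counts was not rerun, since it needs counts. The raw reads were not used and read depth was not determined. Of 171 pairs of mice, 0 had identical values. log2(TPM + 1) was tested with limma 3.58.1 in R 4.3.3, with 1 mean per stage and Benjamini-Hochberg adjustment over 16230 genes. Single values were tested by exact permutation, two-sided, on TPM, and correlations by 100000 permutations, in Python 3.11.15 with scipy 1.17.1. The fit was tested on simulated data. Named genes outside the 9 are, per list and comparison, up to 4 called genes with the largest change, and the 5 genes most like Nqo1 and Nfe2l2, of which 1 is not reported here. The members and lists were chosen with earlier results of these data known. The alternatives were a pseudocount of 0.1 or 0.5, a minimum mean of 1 TPM, no minimum, the 2 stages alone, median-ratio and quantile scaling, robust moderation, range of animal number as a covariate, the upper range of animal numbers alone, and leaving out each mouse. Fits within ranges, permutations in the upper range and list counts under 2 alternatives were added after the data were seen. Gene positions are from GENCODE M21.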

Additional observations from a re-analysis of the deposited data

How the results depend on the processing

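Under the 10 other settings of the fit and with each mouse of a comparison left out, Srxn1 and Hmox1 kept their direction and side of the threshold at involution against lactation, as did Nfe2l2, and Srxn1 at lactation against nulliparous. Txnrd1 lost both calls when mice numbered 200 and above were fitted alone, while the interaction fit called its rise in that range (adjusted p 0.0285). The members called at lactation against nulliparous were 2, and became 4 with median-ratio scaling and 4 with the range of animal number as a covariate (Keap1 and Gsr added), 1 among mice numbered 200 and above, and 2 to 3 with a mouse left out, where Keap1 was gained without mouse NUL_220, NUL_227 or LAC_133 (adjusted p 0.0376, 0.0141 and 0.0294) and Gsr was called without LAC_213 (0.0193). Keap1 was also added, giving 3 members, with a pseudocount of 0.1, a minimum mean of 1 TPM or quantile scaling (adjusted p 0.0499, 0.0437 and 0.0131). Of all genes, 9.21% were called at lactation against nulliparous, against 15.7% with the covariate and 6.52% to 9.72% with a mouse left out. At involution against lactation the members called were 3 among mice numbered 200 and above and 4 to 6 with a mouse left out, and 14.1% and 17.5% to 23.8% of all genes were called, against 22.8%. Gsr lost its call without LAC_36, LAC_102, LAC_133, ID6_201, ID6_209, ID6_216 or ID6_218 (adjusted p 0.0660 to 0.0990), and Nqo1 without LAC_36, LAC_102, LAC_133, LAC_200, LAC_240, ID6_201, ID6_209 or ID6_216 (0.0560 to 0.101). Both also lost it with no filter, with the 2 stages alone and with the covariate. At involution against nulliparous 1 member, Hmox1, was called with a filter at 1 TPM, and 0 to 2 with a mouse left out. These were Hmox1 without NUL_220, NUL_221, NUL_226 or NUL_227 (adjusted p 0.0222, 0.0407, 0.0499 and 0.0415) and Keap1 without NUL_227 (0.0285). Of all genes, 4.36% were called there, against 1.40% with no filter, 2.44% with median-ratio and 2.61% with quantile scaling, 1.57% with the covariate and 0.819% among mice numbered 200 and above. With a mouse left out the share ran from 1.51% (NUL_13) to 9.16% (NUL_227), with 1.56% and 1.81% without NUL_1 and NUL_4, and 2.5%, 1.93%, 2.05%, 2.51% and 1.79% without ID6_201, ID6_209, ID6_216, ID6_230 and ID6_232. With a mouse left out, the number of members past a log2 fold change of 1 was 0 to 0 in each comparison.

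Reversals were small differences that were not called. At involution against lactation Gclm was -0.0099 after median-ratio scaling. At lactation against nulliparous Hmox1 ran from -0.17 to 0.012 with a mouse left out. At involution against nulliparous, the covariate, the upper range and the permutation in the upper range gave 0.11, 0.15 and 0.16 for Gclc, 0.12, 0.069 and 0.081 for Gsr, 0.0029, 0.010 and 0.017 for Srxn1, and 0.029, 0.012 and 0.025 for Nqo1, and mean TPM of all mice gave 0.0064 for Gclc. With a mouse left out these ran from -0.086 to 0.061, -0.076 to 0.040, -0.067 to 0.022 and -0.097 to 0.053. The difference in the Gclc to Gclm ratio was 0.0331 for involution against nulliparous in the upper range, and with a mouse left out it ran from -0.0307 to 0.0427 against lactation, from -0.171 to -0.0863 against nulliparous, and from -0.181 to -0.0954 for lactation against nulliparous. Nfe2l2 and Txnrd1 had r = -0.064 with the stage means alone removed. Where the upper range was selected, fewer mice entered the fit. With range as a covariate, 15.7% of all genes were called at lactation against nulliparous, more than the 9.21% without it. The cause of these moves was not tested. No paired analysis was possible because the animal numbers are not shared between stages. No value of a member stood apart from its stage among the 27 groups of mice examined.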
